A study of Homo sapiens with 6 samples.

Results

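The messenger RNAs described here belong to 10 genes that restrain cell growth or mark resting cells: GAS1, GAS2L1, TOB1, TOB2, BTG1, BTG2, CCNG1, CCNG2, YPEL3 and DYRK1B. A probe was taken as a member where the array's annotation gives 1 of these gene symbols, which found 15 of the 48103 probes analysed and 9 of the 10 genes. BTG2 has no probe under its symbol in the annotation used and was not analysed here. GAS2L1 has 2 probes, and neither was detected on any of the 6 arrays. The remaining 8 genes, with 13 probes, passed the filter on dim signals and were tested beside 11220 genes in all. The cells were A375, an established human melanoma line taken from a metastasis. They received the solvent DMSO (3 samples) or vemurafenib, an inhibitor of the RAF-family kinases on whose signalling this line depends, at 3 µM for 24 h (3 samples). In either group 1 sample carries no number and the others are labelled 1 and 2. The labels do not say whether they came from separate cultures, so every p-value here reflects sample-to-sample spread that could be purely technical.

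As background, these genes act at several points where a cell stops dividing. BTG and TOB proteins share an amino-terminal domain through which they bind the CCR4-NOT complex, and so bring this poly(A)-shortening enzyme to messenger RNAs. GAS1 is a surface protein held by a lipid anchor, first found as a growth arrest-specific gene in serum-starved mouse fibroblasts, and it also serves as a co-receptor for hedgehog ligands. CCNG1 and CCNG2 encode unconventional cyclins that bind protein phosphatase PP2A; the first is a p53 target and the second a target of FOXO factors that is high in resting cells. YPEL3 is a small zinc-binding protein that p53 can induce. DYRK1B is a kinase that helps to hold cells in quiescence by acting on cyclin D1 and on the inhibitor p27. GAS2L1 links actin to microtubules.

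Values are log2 intensities after background correction and quantile normalization, and a probe counted as detected at a detection p under 0.01. Each array had 38.2% to 41.7% of its probes detected, and its median signal of 91 to 94.5 intensity units lay close to the background mean of 85 to 88.3, so differences between dim signals are compressed. Number 2 stood apart in both groups: log2 values of the unnumbered and 1 samples differed from each other with an SD of 0.299 (DMSO) and 0.321 (vemurafenib), and from sample 2 of their group with an SD of 0.535 to 0.556. Among markers of the pigment lineage, MITF and SOX10 were detected on all 6 arrays, and MITF rose by 0.75 in log2 terms (limma adjusted p = 0.0334). MLANA was detected on 1 array and PMEL on 2, while TYR, TYRP1 and S100B were detected on none. Proliferation markers fell for 8 of 9 genes at a limma adjusted p under 0.05, where 7.93% of all genes tested did. CDK1, the mitotic kinase, went from log2 10.12 ± 0.08 to 7.39 ± 1.33 (SD, n = 3 per group), with 8.91 in vemurafenib sample 2 against 6.46 and 6.79 in the other treated samples. CCNA2, BUB1 and MCM2, which act in S phase and mitosis, fell 5.84-fold, 4.03-fold and 3.73-fold (limma adjusted p = 0.0243, 0.0191 and 0.028). The calls of CDK1, CCNA2, BUB1, MCM2 and MITF were lost without DMSO unnumbered, DMSO 1, vemurafenib unnumbered or vemurafenib 1 (adjusted p up to 0.111), and those of CCNA2, MCM2 and MITF also without DMSO 2.

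**Figure D1:**
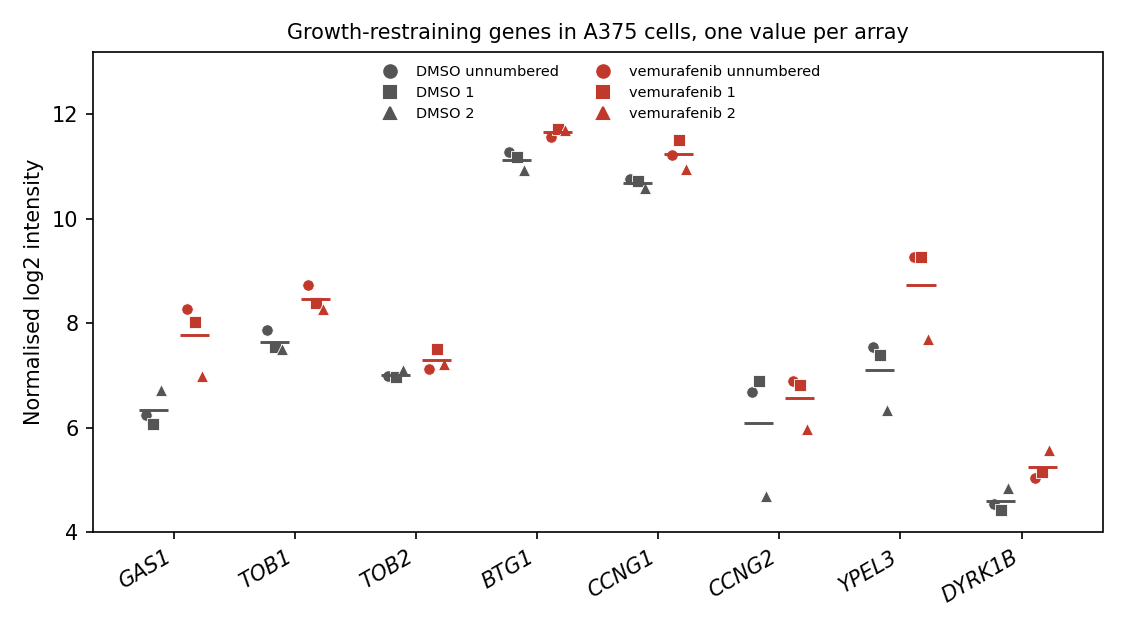
Normalised log2 intensity (vertical axis) of the brightest tested probe of each of the 8 genes on every array; grey is DMSO, red is vemurafenib, the symbol gives the sample's label and the bar the mean of 3 samples. The 3 red points lie above the 3 grey points for each gene except CCNG2, with a gap for TOB1 and almost none for TOB2 (highest control 7.10, lowest treated 7.13); levels of different genes are not comparable on this axis.

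After 24 h of vemurafenib, GAS1 and TOB1 rose, and the other 6 tested genes had higher means without passing the test. The test was limma's moderated comparison of the 2 groups, with Benjamini-Hochberg adjustment across the 18747 probes tested and a threshold of 0.05. It called 2 of 8 members higher and 0 lower, where 8.07% of all genes tested were called higher and 7.93% lower. Of all called genes 50.4% were higher, and 60.8% under median centring of the arrays without quantile normalization, where GAS1, TOB1 and YPEL3 passed. At an unadjusted p under 0.05 the members higher were GAS1, TOB1, BTG1, CCNG1, YPEL3 and DYRK1B, and none was lower. Over all genes tested, 3960 of 11220 had an unadjusted p under 0.05, in either direction. The median log2 change of the 8 genes was 0.59, against 0.048 over all genes tested. A change above 0 was found for 8 of 8 members and 54.1% of all genes, and a change of at least 1 for GAS1 and YPEL3 and 5.84% of all genes. The 3 treated values lay above the 3 controls for 7 of the 8 and below them for 0, as they did for 21.8% and 18.0% of all genes. The members were chosen with earlier results of these data known, so these comparisons with all genes are a description only. DYRK1B passed the filter on dim signals mainly through its treated samples, which favours a difference in that direction. In RNA from whole cultures, a change in the share of expressing cells and a change in RNA per cell cannot be told apart. When the label (unnumbered, 1 or 2) entered the fit as a replicate block, 5 of 8 members were called higher, namely GAS1, TOB1, CCNG1, YPEL3 and DYRK1B, where 16.1% of all genes were called higher and 13.6% lower. Leaving out single arrays changed the count to 0 without DMSO unnumbered, DMSO 1, vemurafenib unnumbered or vemurafenib 1, to 1 without DMSO 2 and to 4 without vemurafenib 2.

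**Figure D2:**
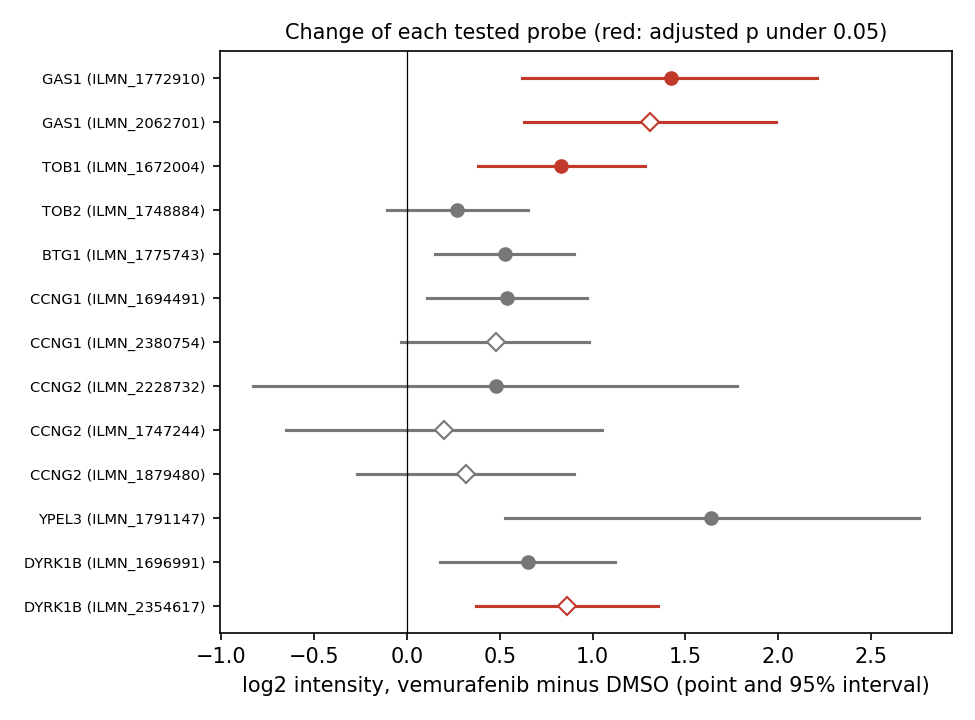
Log2 intensity in vemurafenib minus DMSO (horizontal axis) for the 13 tested probes, with the 95% interval of the limma fit over 6 arrays; filled circles are the brightest probe of a gene, open diamonds its other probes, and red marks an adjusted p under 0.05. All 13 points lie to the right of 0; both GAS1 probes, TOB1 and the dimmer DYRK1B probe are red.

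GAS1 rose 2.67-fold. Its log2 intensity was 6.25, 6.08 and 6.73 in the DMSO samples unnumbered, 1 and 2, and 8.28, 8.02 and 7.0 in the vemurafenib samples of the same labels. All treated values were above all controls, but treated sample 2 exceeded control sample 2 by only 0.27, against 2.03 and 1.95 for the other labels. The fitted log2 change was 1.42 ± 0.34 (SE; limma adjusted p = 0.0339). The second GAS1 probe, dimmer and also detected on every array, showed the same order of samples among the treated, 6.97, 6.64 and 5.79, over controls of 5.32, 5.02 and 5.13, with a change of 1.31 ± 0.30 (SE; limma adjusted p = 0.0283). An exact two-sided permutation test of the brighter probe gave p = 0.1, the smallest that 3 samples against 3 allow, and the same value holds for every member whose groups did not overlap. The limma adjusted p of GAS1 became 0.1, 0.0952, 0.122 and 0.12 without DMSO unnumbered, DMSO 1, vemurafenib unnumbered and vemurafenib 1, and 0.00361 without vemurafenib 2.

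Many partners of GAS1 in hedgehog reception were below detection. Of 12 hedgehog pathway genes with a probe, 6 (CDON and BOC, the co-receptors that act beside GAS1, the receptor PTCH1, the transcription factor GLI1, and the ligands SHH and IHH) were detected on no array. The ligand DHH was detected on 0 control and 2 treated arrays and was too dim to be tested. Its mean was at least 1.38-fold higher, with no overlap. Of the 4 genes tested, HHIP, a membrane protein that binds and holds hedgehog ligands, fell. It was at log2 5.20, 5.75 and 5.86 in DMSO and at 4.67, 4.26 and 4.17 with vemurafenib, where 1 of 3 arrays detected it, so the fitted change of -1.24 ± 0.23 (SE; limma adjusted p = 0.0170) is approximate. The call of HHIP was lost without DMSO 1 or vemurafenib 1 (adjusted p up to 0.0719). GLI3, SMO and GLI2 did not pass (log2 changes of 0.53, 0.33 and 0.07). GAS1 also binds RET, the GDNF receptor kinase. RET, GFRA3, GFRA4 and GFRAL were detected on no array, and GFRA1, the 1 gene of 6 with probes that was tested, was detected on 0 control and 3 treated arrays and did not pass (limma adjusted p = 0.0698), while it did with the replicate block (0.0398).

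No other gene that carries the GAS name was called higher in the fit without the replicate block. Of 6 with a probe, GAS2, GAS2L2 and GAS5 were undetected on all arrays, GAS6, a ligand of TAM receptors, had a log2 change of -0.18 and GAS7 of 0.70 (limma adjusted p = 0.513 and 0.294). With the replicate block, GAS7 passed (adjusted p = 0.0295). GAS2L3, a cytoskeletal linker of dividing cells and a relative of the undetected GAS2L1, fell by 0.97 in log2 terms (limma adjusted p = 0.0344). It was detected on 1 of 3 treated arrays, and its call was lost when any single array other than vemurafenib 2 was left out (adjusted p up to 0.127). The brighter GAS2L1 probe read 4.96, 4.73 and 4.44 in DMSO and 4.42, 4.39 and 4.54 with vemurafenib, below detection throughout, so no fold change is given.

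The promoter of GAS1, 250 bases before to 50 bases after the annotated start (RefSeq, GRCh38.p14, chr9:86947457-86947756, minus strand), and that of TOB1 at the downstream of its 2 annotated starts (chr17:50866305-50866604, minus strand) are shown because these are the members called in the fit over all 6 arrays. Capitals mark CCAAT boxes. The TOB1 window shown also holds 1 CRE core (TGACG) and 3 GC boxes (GGGCGG), left in lower case. The window at the upstream TOB1 start (chr17:50867929-50868228, minus strand) matched none of the motifs searched and is not shown.
GAS1: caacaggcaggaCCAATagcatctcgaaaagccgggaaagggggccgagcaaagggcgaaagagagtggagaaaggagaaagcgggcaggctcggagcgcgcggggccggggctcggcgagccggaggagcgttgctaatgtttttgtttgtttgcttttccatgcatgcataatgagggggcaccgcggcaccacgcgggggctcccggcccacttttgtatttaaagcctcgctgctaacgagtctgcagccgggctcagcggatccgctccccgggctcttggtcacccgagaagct
TOB1: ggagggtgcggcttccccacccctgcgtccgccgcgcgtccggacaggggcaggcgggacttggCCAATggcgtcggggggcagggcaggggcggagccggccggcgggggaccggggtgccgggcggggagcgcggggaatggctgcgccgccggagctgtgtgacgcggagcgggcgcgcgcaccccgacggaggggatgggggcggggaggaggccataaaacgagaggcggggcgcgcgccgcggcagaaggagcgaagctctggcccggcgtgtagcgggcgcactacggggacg
The CCAAT box begins 238 bases before the start in GAS1 and 186 bases before it in TOB1, and 34.6% of all 35116 promoter windows hold one.

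TOB1 rose 1.78-fold. Its log2 intensity was 7.87, 7.54 and 7.51 in DMSO and 8.74, 8.39 and 8.27 with vemurafenib, so the groups did not overlap and the step was nearly equal for the 3 labels (0.87, 0.86 and 0.76). The log2 change was 0.83 ± 0.19 (SE; limma adjusted p = 0.0305, and 0.00861 with the replicate block). With a control left out, the adjusted p was 0.0617 (unnumbered), 0.0916 (1) and 0.0686 (2). With a treated sample left out it was 0.114 (unnumbered), 0.0930 (1) and 0.0207 (2). TOB2, the closest relative of TOB1, had values of 6.99, 6.97 and 7.10 in DMSO and of 7.13, 7.51 and 7.23 with vemurafenib. Its change of 0.27 (95% interval -0.11 to 0.65; limma adjusted p = 0.307) did not pass, and it passed under none of the alternatives tried. Taken within each array, TOB1 moved more than TOB2 by 0.56 ± 0.26 (SE) on the log2 scale. The within-array differences of treated and control samples did not overlap but nearly touched. Relative to the control mean, the lowest treated difference was 0.27 and the highest control difference 0.26. The exact two-sided permutation p was 0.1 (0.167 adjusted over 5 gene pairs).

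BTG1, a brake on division in lymphoid and other cells, read 11.28, 11.19 and 10.93 in DMSO and 11.57, 11.72 and 11.70 with vemurafenib. The treated samples were all higher and lay close together (SD 0.08), and the change of 0.53 ± 0.16 (SE) missed the threshold (limma adjusted p = 0.0681, and 0.0513 with the replicate block). The call was made with no background correction, with an offset of 50, with the deposited log2 values and with limma's trend and robust options. BTG3, a further gene of the family, went the other way. Its values were 8.94, 8.93 and 9.27 in DMSO and 8.32, 7.95 and 8.24 with vemurafenib. It fell by 0.88 ± 0.18 (SE) in log2 terms (limma adjusted p = 0.0226), and its second probe fell by 0.91 (limma adjusted p = 0.0166). The call of the brighter BTG3 probe was lost without DMSO unnumbered, DMSO 1, vemurafenib unnumbered or vemurafenib 1 (adjusted p up to 0.0889). Within arrays, BTG1 and BTG3 moved apart by 1.4 ± 0.26 (SE) and TOB1 and BTG3 by 1.71 ± 0.24 (SE) on the log2 scale, with no overlap of the groups for either pair (exact two-sided permutation p = 0.1 each, 0.167 adjusted over 5 pairs). BTG4, which acts in oocytes, was detected on no array.

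Of the 15 deadenylase genes tested, the enzyme subunits and partners through which BTG and TOB proteins act, 1 fell, 0 rose and 14 did not pass. Over all genes, 7.93% were called lower and 8.07% higher. The median log2 change of this list was 0.05, against 0.048 over all genes. CNOT9, a subunit of the CCR4-NOT complex that contacts RNA-binding partners, fell 1.92-fold, from 8.58, 8.48 and 8.34 to 7.69, 7.32 and 7.55 (limma adjusted p = 0.0152). Without DMSO unnumbered, DMSO 1, vemurafenib unnumbered or vemurafenib 1 it did not pass (adjusted p up to 0.0654). CNOT7, a catalytic subunit that BTG and TOB proteins bind, had a change of -0.49 ± 0.15 (SE; limma adjusted p = 0.0642, and 0.0481 with the replicate block). All its treated values were below all controls, while its second bright probe did not pass (-0.31). CNOT8, also in this list, had changes of 0.04 and -0.05 at its probes and did not pass (limma adjusted p = 0.895 and 0.893). With the block, 2 of 15 genes of the list were called higher and 2 lower, near the shares over all genes (16.1% and 13.6%).

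**Figure D3:**
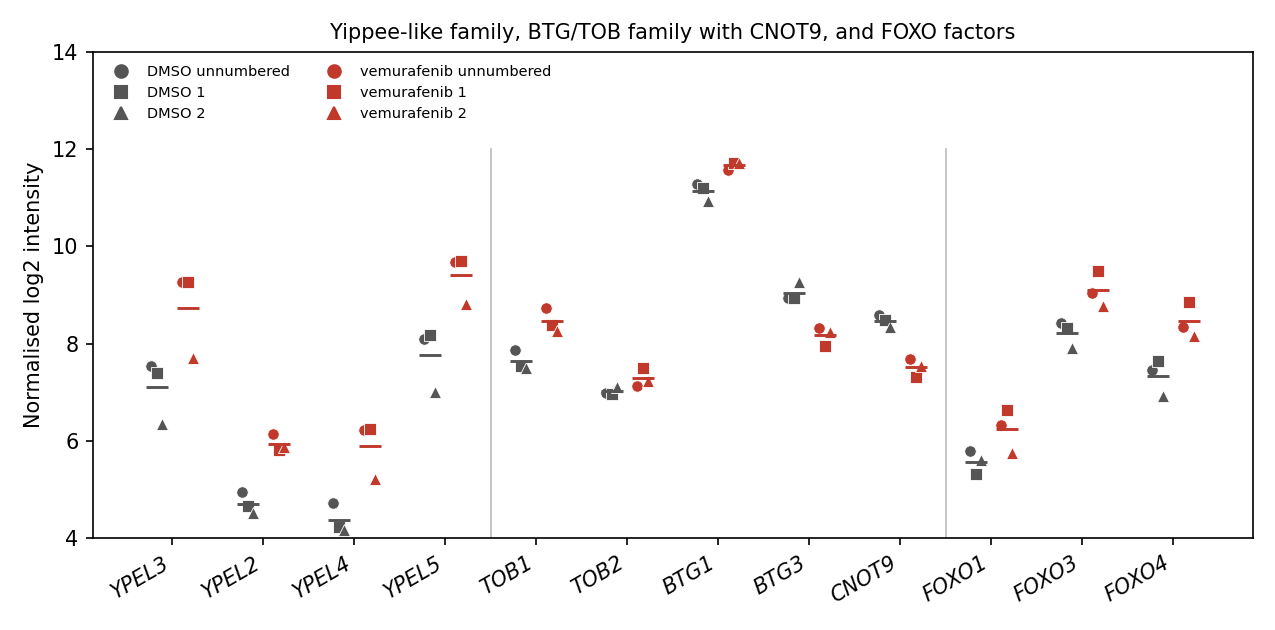
Normalised log2 intensity (vertical axis) per array for the Yippee-like genes (left), the BTG and TOB genes with CNOT9 (middle) and the FOXO factors (right); colours, symbols and bars are as in the plot of the 8 members. Treated samples lie above controls for all 4 Yippee-like genes shown, and BTG3 and CNOT9 lie below them while TOB1 and BTG1 lie above.

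YPEL3 showed the largest mean change of the 8 members, 3.13-fold, with a wide spread in both groups. It read 7.54, 7.39 and 6.35 in DMSO and 9.27, 9.26 and 7.70 with vemurafenib. Sample 2 was lowest in both groups, and treated sample 2, at 7.70, was close to the highest control, at 7.54. The log2 change of 1.64 ± 0.48 (SE) did not pass (limma adjusted p = 0.0571). With the replicate block, which removes the shared offset of the samples numbered 2, it passed (adjusted p = 0.00222), and the step was 1.72, 1.86 and 1.34 for the labels unnumbered, 1 and 2. It also passed without vemurafenib 2 (adjusted p = 0.00745) and without both samples numbered 2 (5.61e-04).

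Among the relatives of YPEL3, the 3 tested, YPEL2, YPEL5 and YPEL4, rose, where 8.07% of all genes tested were called higher. YPEL1 was detected on no array. YPEL5 followed YPEL3 closely, at 8.10, 8.17 and 7.0 in DMSO and 9.68, 9.69 and 8.82 with vemurafenib (3.11-fold, limma adjusted p = 0.0282). Sample 2 was again the lowest of each group. YPEL2 read 4.95, 4.66 and 4.52 in DMSO and 6.14, 5.82 and 5.88 with vemurafenib, a step that differed little between labels (2.35-fold, limma adjusted p = 0.00867), and 2 of 3 control arrays detected it. YPEL4 was not well above background in DMSO and detected on all 3 treated arrays, so it entered the test only through the group where it is high. Its mean was at least 2.61-fold higher (limma adjusted p = 0.0202). YPEL2 passed whichever array was left out (highest adjusted p 0.047). YPEL5 lost it without DMSO unnumbered, DMSO 1, vemurafenib unnumbered or vemurafenib 1 (up to 0.113), and YPEL4 without DMSO 1, vemurafenib unnumbered or vemurafenib 1 (up to 0.0877). The change of YPEL3 exceeded that of YPEL5 by 0.01 ± 0.24 (SE) on the log2 scale, with overlapping groups (exact two-sided permutation p = 1.00).

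The promoters of BTG1 and YPEL3 are shown because they are the 2 members, of 9 with a sequence, whose window holds the FOXO core motif as searched. They lie at chr12:92145797-92146096 and chr16:30096164-30096463, both on the minus strand (RefSeq, GRCh38.p14). Capitals mark matches on either strand to the FOXO core, the CCAAT box, the TATA box and the p53 half-site, and matches to other motifs searched are left in lower case.
BTG1: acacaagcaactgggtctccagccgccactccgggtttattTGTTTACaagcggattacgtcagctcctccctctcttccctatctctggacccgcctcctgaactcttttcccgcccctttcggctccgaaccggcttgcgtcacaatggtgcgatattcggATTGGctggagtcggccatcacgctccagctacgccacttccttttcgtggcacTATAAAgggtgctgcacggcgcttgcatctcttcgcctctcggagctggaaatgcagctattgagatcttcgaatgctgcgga
YPEL3: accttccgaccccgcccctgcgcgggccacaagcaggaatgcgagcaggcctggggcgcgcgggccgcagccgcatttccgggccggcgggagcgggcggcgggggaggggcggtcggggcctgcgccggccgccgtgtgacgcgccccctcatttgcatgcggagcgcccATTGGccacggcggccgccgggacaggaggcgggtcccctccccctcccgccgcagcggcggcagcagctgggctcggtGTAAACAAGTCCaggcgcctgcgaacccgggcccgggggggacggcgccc
The FOXO core was searched as GTAAACA and is present in 3.42% of all promoter windows. In BTG1 it stands on the opposite strand, as TGTTTAC, 209 bases before the start. In YPEL3 it begins at the first transcribed base, and the p53 half-site, present in 6.63% of windows, overlaps it as AAACAAGTCC. BTG1 also has a TATA box (TATAAA, 11.5% of windows) 33 bases before its start. The E-box CACGTG, in 7.26% of windows, was found in CCNG2 and DYRK1B. Also searched on both strands were the GC box GGGCGG (45.0% of windows), the CRE core TGACG (24.6%), TTCCCGC for E2F (6.55%), TTTGAA for the cell cycle homology region (15.2%), CCGGAAG for ETS (10.3%), TGANTCA for AP-1 (7.71%) and the SRF CArG box (1.29%). None of the members' windows matched the last 4 of these. GAS1, TOB1, CCNG1 and CCNG2, the last a known FOXO target, have no match to GTAAACA in these windows. Variants of the FOXO core were not searched.

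Messages of the FOXO factors themselves, which can drive BTG1 and CCNG2, rose for 2 of 3 genes tested, where 8.07% of all genes were called higher. FOXO4 read 7.46, 7.64 and 6.92 in DMSO and 8.35, 8.86 and 8.16 with vemurafenib (2.18-fold, limma adjusted p = 0.0291). FOXO3 rose at its brighter probe by 0.89 in log2 terms (limma adjusted p = 0.0434), while its second probe, with a change of 0.33, did not pass. FOXO1 did not pass either (0.65, limma adjusted p = 0.12). Without any single array other than vemurafenib 2, neither FOXO3 nor FOXO4 passed (adjusted p up to 0.137 and 0.1).

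The 2 G cyclins differed in how well they could be measured. CCNG1 read 10.76, 10.73 and 10.58 in DMSO and 11.22, 11.51 and 10.95 with vemurafenib, with every treated value above every control. Its change of 0.54 ± 0.19 (SE) did not pass (limma adjusted p = 0.0918) but did with the replicate block (0.0453) and without vemurafenib 2 (0.0382). A second CCNG1 probe was not well above background in DMSO and was detected on all treated arrays. Its mean was at least 1.37-fold higher, but the 95% interval of its log2 change was -0.03 to 0.98. It did not pass (limma adjusted p = 0.177). CCNG2 read 6.68, 6.90 and 4.69 in DMSO and 6.90, 6.82 and 5.97 with vemurafenib. Both samples numbered 2 were low, the groups overlapped, and the change of 0.48 had a 95% interval of -0.83 to 1.78 (limma adjusted p = 0.605). Its other 2 probes had changes of 0.20 and 0.32 and did not pass. Without vemurafenib 2 or the other arrays in turn the CCNG2 change ranged from -0.22 to 0.88. CCNG1 and CCNG2 differed in change by 0.06 ± 0.68 (SE), an interval that spans differences of either sign (exact two-sided permutation p = 1.00). Of 9 tested partners and relatives of these cyclins, among them PP2A subunits and the p53 regulator MDM2, 0 passed in limma's test and 0 with the replicate block. The tested MDM2 probe was near background, detected on 1 control and 2 treated arrays, so a change in it could be missed. The 2 brightest of the list, PPP2CA, the catalytic subunit of PP2A, and cyclin I, CCNI, had log2 changes of -0.15 and 0.14. None of the 9 had an unadjusted p under 0.05, where 3960 of all 11220 genes tested had one.

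DYRK1B was near the limit of detection in DMSO. Its brighter probe read 4.54, 4.42 and 4.85 in DMSO, detected on 1 array, and 5.04, 5.15 and 5.57 with vemurafenib, detected on 3. The change of 0.65 ± 0.20 (SE) did not pass (limma adjusted p = 0.0705) but did with the replicate block (0.0205). The dimmer probe, detected on 0 control arrays and 3 treated ones and so tested only through the latter, was at least 1.67-fold higher and passed (limma adjusted p = 0.0354). In contrast to GAS1 and YPEL3, treated sample 2 was the highest of the 3 at both probes. Its close relative DYRK1A had a change of -0.06. Of the 6 tested DYRK and HIPK kinases and their scaffold DCAF7, 0 passed; DCAF7 had a log2 change of 0.54 (limma adjusted p = 0.057, and 0.0401 with the replicate block) and DYRK4 of 0.37 (0.173). At an unadjusted p under 0.05 the list had DCAF7 and HIPK2, where 3960 of all 11220 genes tested had such a p. With the block 1 of 6 genes of this list was called higher and 1 lower, near the shares over all genes (16.1% and 13.6%).

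**Figure D4:**
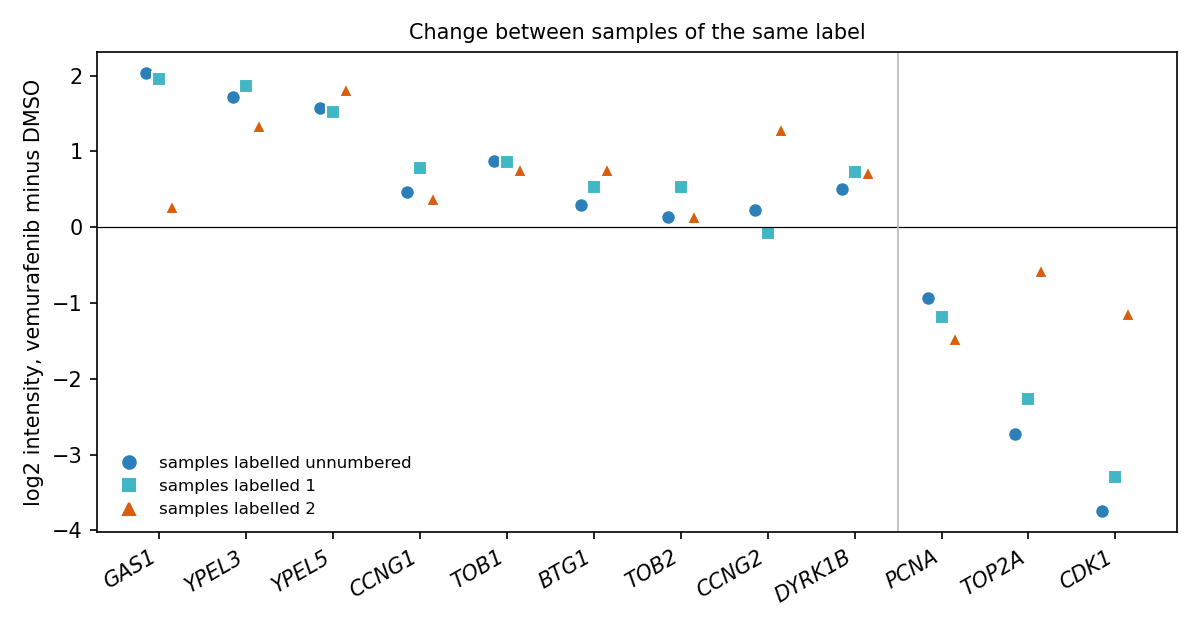
Log2 intensity in vemurafenib minus DMSO (vertical axis) between the samples of the same label, for the 8 members with YPEL5 (left of the line) and 3 proliferation genes (right); each point is a difference of 2 arrays and has no error of its own. For the brighter GAS1 probe the samples numbered 2 give 0.27 against 2.03 and 1.95, while TOB1 gives 0.76 to 0.87 for all labels.

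The members differed in how they stood between the samples numbered 2, where the median change of proliferation markers was smallest. That median over 9 markers was -2.13, -2.17 and -1.15 between the samples labelled unnumbered, 1 and 2, but not every marker followed it. MKI67 gave -1.27, -0.79 and -1.30, PCNA, the sliding clamp of DNA replication, gave -0.94, -1.18 and -1.47, and TYMS gave -0.89, -1.26 and -0.94. Between the same samples GAS1 changed by 2.03, 1.95 and 0.27 at its brighter probe and by 1.65, 1.62 and 0.66 at its second. YPEL3 changed by 1.72, 1.86 and 1.34, TOB1 by 0.87, 0.86 and 0.76, BTG1 by 0.29, 0.53 and 0.76, and DYRK1B by 0.50, 0.73 and 0.71. The median of the 8 members was 0.48, 0.76 and 0.74. Each label gives 1 difference, so these orders have no test.

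By Pearson's r over the 6 arrays, the genes whose profile was most like that of GAS1 were NAGPA, VPS53 and EOMES (r = 0.998, 0.996 and 0.993), and those most like TOB1 were RNF123, ABI3BP and PTPRN (0.998, 0.997 and 0.996), among 11189 genes compared. With 6 points and a shared difference between the groups, high values of r arise for many genes, and they are given as a description only.

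Markers of other cell types were examined in the same arrays. Of 6 fibroblast markers, 1 to 2 were detected on each control array and 3 to 6 on each treated array. Their summed level, after background correction with an offset of 16 and quantile normalization, was 140.1 to 158.3 in DMSO and 200.4 to 336.5 with vemurafenib. Because of the offset, markers below detection also add to these sums. The tested probe of decorin, DCN, was not detected in DMSO and entered the test only through its 3 treated arrays. It was called higher, with a mean at least 1.93-fold higher (limma adjusted p = 0.023). The call was lost without DMSO unnumbered, DMSO 1, vemurafenib unnumbered or vemurafenib 1 (up to 0.0822). The other DCN probes were too dim to be tested and shared no direction (mean log2 4.65 to 4.49, 4.42 to 4.54 and 4.31 to 4.18, DMSO to vemurafenib). The first of these was detected on 1 DMSO array and 0 treated arrays. Lumican, LUM, read 5.26 ± 0.40 and 6.43 ± 0.71 (SD, n = 3 per group; limma adjusted p = 0.0693, and 0.00867 with the replicate block). COL1A1, a collagen detected on 0 control and 3 treated arrays, was at least 1.51-fold higher without passing (limma adjusted p = 0.0697), and passed with the block (0.0274). All 3 tested fibroblast markers had every treated value above every control, where 21.8% of all genes tested did. DCN and COL1A1 were tested only through their treated arrays, which favours that order. GAS1 is itself expressed in fibroblasts, and the part of these markers in its change was not tested. Of the keratinocyte markers KRT10 and KRT14 were tested and did not pass, and KRT5, KRT1 and DSG3 were detected on no array. Of the leukocyte markers CD14 and LYZ were tested and did not pass, and PTPRC and CD3E were detected on none. No endothelial marker passed the filter, and CDH5, KDR and TEK were detected on none.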

How the data were processed

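Total RNA of A375 cells was labelled with biotin and hybridised to Illumina bead arrays, 1 per sample, as the labels' protocols say. The files the authors deposited give a signal intensity for each of 48107 probes and array, linear and not normalized as the values show, with a detection p-value beside each per the file headers. They also deposited log2 values of the same arrays. Their method is not stated. Set against the intensities, they are close to log2 signals after quantile normalization without background correction (93.5% of values within 0.03), with a median of 6.54. No source used here names the scanner software.

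Of the probes, 4 with a missing value were left out. Background was corrected with limma 3.58.1 (R 4.3.3) by normexp, its level inferred from the detection p-values, with an offset of 16, followed by quantile normalization and log2. The filter kept 18747 probes detected (p under 0.01) on 3 or more of 6 arrays. A gene was represented by its kept probe of highest mean (11220 genes). GEO's platform annotation gave 1 symbol for 30111 probes, several for 8 and none for 17984. The vemurafenib minus DMSO contrast was fitted with lmFit and eBayes over all 6 samples without covariates, and tested on simulated data beforehand. A gene undetected on every array of a group has an "at least" fold, against the higher of its own signal and the lowest detected signal on each array. This fold compares group means and is not a lower confidence limit. For labels as pairs, deviations from the group means correlated at 0.19, 0.35 and 0.52 for unnumbered, 1 and 2, which set the use of the replicate block; the unnumbered and 1 samples also correlated across labels (0.26 and 0.35). Errors are SDs over 3 samples or standard errors. The precision is limited by 6 arrays.

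The members and gene lists were chosen with earlier results of these data known. The lists were BTG and TOB relatives, CCR4-NOT and PAN deadenylases, GAS-named genes, hedgehog and GDNF reception, cyclin G partners, Yippee-like relatives, DYRK and HIPK kinases, the DREAM complex, FOXO factors and p53, proliferation markers, pigment lineage markers, and fibroblast, keratinocyte, leukocyte and endothelial markers. Named were all members' probes and the 3 genes most like each called member. Each list gave up to 4 called genes of largest change, or up to 2 of the brightest if none was called. Further genes of these lists (such as CNOT7, CNOT8, GAS7, BTG4, RBL2, LUM, COL1A1, DHH and genes detected nowhere) were chosen after their values were seen. Promoter sequences are RefSeq's and matched 9 of 10 members. The motifs were chosen after the data were seen.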

Additional observations from a re-analysis of the deposited data

How the results depend on the processing

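Every tested member kept a positive change under the alternatives tried, except CCNG2, which was not called under any (-0.22 to 0.88). The calls depended on the arrays. Against 2 members, 11 genes of the role lists and 1796 genes in all, leaving out single arrays gave 0 to 4 members, 2 to 16 list genes and 305 to 2671 genes. The replicate block gave 5, 22 and 3339, leaving out both samples numbered 2 gave 5, 18 and 3638, averaging the unnumbered and 1 samples gave 0, 0 and 26, and no filter on dim probes gave 0, 6 and 940. An offset of 50 and limma's trend and robust options each called 4 members. For the 0 members without a filter, more probes enter the adjustment; with the samples averaged, 2 are compared with 2; other causes were not tested. Centring arrays on their median gave 60.8% of calls higher, against 50.4%, and a median change over all genes of 0.117, against 0.048; GAS1, TOB1 and YPEL3 passed there. DYRK1B and the second CCNG1 probe are limited by signal near background.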

Other observations

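The DREAM complex, which represses cell cycle genes in resting cells and whose subunit LIN52 is a substrate of the DYRK1A kinase, was measured for 11 genes. Of these, 2 fell, 0 rose and 9 did not pass, with a median log2 change of -0.52 against 0.048 over all genes tested. Over all genes, 7.93% were called lower and 8.07% higher. RBL1, the pocket protein p107, read 6.05, 6.15 and 6.15 in DMSO and 5.22, 4.44 and 4.72 with vemurafenib, where 2 of 3 arrays detected it (log2 change -1.32 ± 0.22, SE; limma adjusted p = 0.0120). LIN9, a core subunit, read 6.25, 6.06 and 6.18 and then 5.42, 4.96 and 5.19 (-0.97 ± 0.17, SE; limma adjusted p = 0.0153). RBL2, the pocket protein p130 that is the main one of quiescent cells, had all treated values above all controls, at 8.20, 8.03 and 7.70 and then 8.69, 8.72 and 8.21, and did not pass (0.56 ± 0.21, SE; limma adjusted p = 0.116), while it did with the replicate block (0.0315). RBL1 passed whichever array was left out (highest adjusted p 0.0484), and LIN9 did not pass without DMSO unnumbered or vemurafenib 1 (up to 0.0651). With the block 1 of 11 genes of the complex was called higher and 5 lower, where 16.1% of all genes were called higher and 13.6% lower.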
